A study of Mus musculus with 14 samples.

Results

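Matrix metalloproteinases (MMPs) and their tissue inhibitors (TIMPs) were examined in lung tumors driven by c-Myc. The members were the genes of a named list of 7 MMPs (Mmp2, Mmp3, Mmp8, Mmp9, Mmp11, Mmp12 and Mmp14) and 3 TIMPs (Timp1, Timp2 and Timp3). All of their probe sets with a single platform gene symbol were taken, which gave 16 probe sets of 10 genes among the 10833 probe sets and 8251 genes with a single symbol on the array. The data are 14 Murine Genome U74v2 arrays (Affymetrix), which hybridize labelled RNA to short oligonucleotides. Tumors came from hemizygous SPC/c-Myc-transgenic mice of the CD2F1-(DBA/2xBalb/C) background aged 9 to 13 months, in which a human surfactant protein C promoter drives c-Myc in respiratory epithelium. There were 3 pools of small tumors of about 1 mm (3 to 4 tumors in each pool), 4 middle-sized tumors of 4 to 5 mm and 3 large tumors of at least 10 mm. The reference was lung of 4 non-transgenic mice, matched in age and of the same background, and the same 4 control lungs served all 3 tumor sizes. Per the methods, every array represented a different animal. The tumors were separated by eye from the surrounding lung, so stromal and blood cells of the tumor were part of the sample, as all lung cells were in the controls.

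MMPs are zinc-dependent proteases that are mostly secreted as inactive precursors and cleave collagens, elastin, laminins, proteoglycans and many cell surface proteins. TIMPs are small proteins that bind the active site of MMPs, and Timp3 is held in the matrix and also blocks several proteases of the ADAM family. In the lung these enzymes are known from the turnover of the alveolar wall, from emphysema, from leukocyte traffic and from the invasion of carcinomas, and much of their production comes from macrophages, neutrophils and fibroblasts rather than from the epithelium.

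The signals were MAS 5.0 intensities, per the methods scaled to a target of 250, and the methods take 70 as the lowest signal of an expressed gene. The array of middle-sized tumor replicate 3 stood apart, since 25.2% of its values were listed at or next to 0 and were treated as missing here. Its trimmed mean signal was 190.7 with these values as deposited and 276.1 without them, against 248.9 to 249.5 on the other 13 arrays. It had 5630 probe sets at or above 70, against 6796 to 7575 on the other 13 arrays, and it held no value for Mmp14 and Timp3. The labels were checked on the transgene, and the signal of Myc was 325 to 2165 in the 10 tumors and 24.1 to 35.6 in the 4 control lungs. Sftpc, the surfactant gene of alveolar type II cells, was abundant in both tissues, with 7768 to 10550 in tumors and 6029 to 12070 in control lung.

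Of the members, Mmp12, Mmp3 and Mmp8 lie on chromosome 9, in a row of 10 MMP genes whose order is Mmp13, Mmp12, Mmp1b, Mmp3, Mmp1a, Mmp10, Mmp8, Mmp27, Mmp20 and Mmp7. Promoters of this family are known for binding sites of AP-1, the dimer of Fos and Jun proteins, next to the TATA box. The 80 bases before an annotated start are shown for Mmp12 and Mmp3, which have Mmp1b between them in the row. They were chosen because both hold the same motif there but differed in the tumors. Mmp12 was higher than every control lung in 9 of 10 tumors, and Mmp3 was lower than every control lung in 9 of 10. Capitals mark a match to the AP-1 motif TGANTCA, which reads the same on both strands. The sequences are those of RefSeq on GRCm38.p6, both on the plus strand, at chr9:7347294-7347373 for Mmp12 (one of its annotated starts) and chr9:7445742-7445821 for Mmp3.
Mmp12: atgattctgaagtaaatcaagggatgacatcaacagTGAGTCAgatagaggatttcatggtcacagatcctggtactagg
Mmp3: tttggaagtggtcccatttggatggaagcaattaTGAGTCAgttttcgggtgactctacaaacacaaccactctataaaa
The other annotated start of Mmp12 lies upstream of the printed bases, with its own 80 bases at chr9:7344317-7344396. The window of that upstream start held no AP-1 match. In the printed bases, the match began 44 bases before the start in Mmp12 and 46 bases before it in Mmp3. The letters TATA are in the printed bases of Mmp3 and not in those of Mmp12. Windows from 250 bases before to 50 bases after the start were given for 8 of the 10 members, and Mmp12 and Mmp3 were the 2 members with an AP-1 match in this window. Among all 32851 windows of the genome table, 7.81% held the motif, and 8.97% of the 27025 genes had it in a window. No member window held the E-box CACGTG, the sequence bound by c-Myc and Max, which was in 7.15% of all windows. A match of letters is a description of the window and says nothing about binding in these tumors.

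Across the 10 tumors, 1 member was higher than in control lung (Mmp12), 4 were lower (Mmp9, Mmp11, Timp2 and Timp3), and Mmp3, Mmp8, Mmp14 and Timp1 did not pass the test (limma on log2 signals with Benjamini-Hochberg adjustment over 6914 probe sets, threshold 0.05). Mmp2 could not be tested, as its signal was below 70 on every array. The share of all tested probe sets that passed was 23.6% for higher and 21% for lower, so single calls were common in this comparison. With every array scaled to 1 median, the split over all probe sets changed to 2099 higher and 1199 lower, against 1631 and 1452 with the deposited scaling, and the median log2 fold change moved to 0.15 from 0.04. The same 5 members were called under that scaling. By size, Mmp12 was called higher in all 3 and Mmp9, Mmp11 and Timp2 lower in all 3, while Timp3 was lower in small and large tumors. The 3 sizes share the 4 control lungs and 1 estimate of the spread, and the comparison of all tumors is their mean. The calls by size are therefore not separate support. Background shares were 19.9% higher and 16.7% lower in small pools, 15.8% and 16.4% in middle-sized tumors, and 19.8% and 18.3% in large tumors. The counts for single sizes were less stable than the count for all tumors. Of the 5 calls in small pools, 3 were left without control replicate 2 and 2 without small replicate 1 or 2, and of the 5 in large tumors, 3 were left without control replicate 1 or large replicate 1 or 3 and 2 without control replicate 2 or large replicate 2. Without middle replicate 3, 6 members were called in all tumors, the addition being Mmp3, which then reached 70 in control lung alone.

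**Figure D1:**
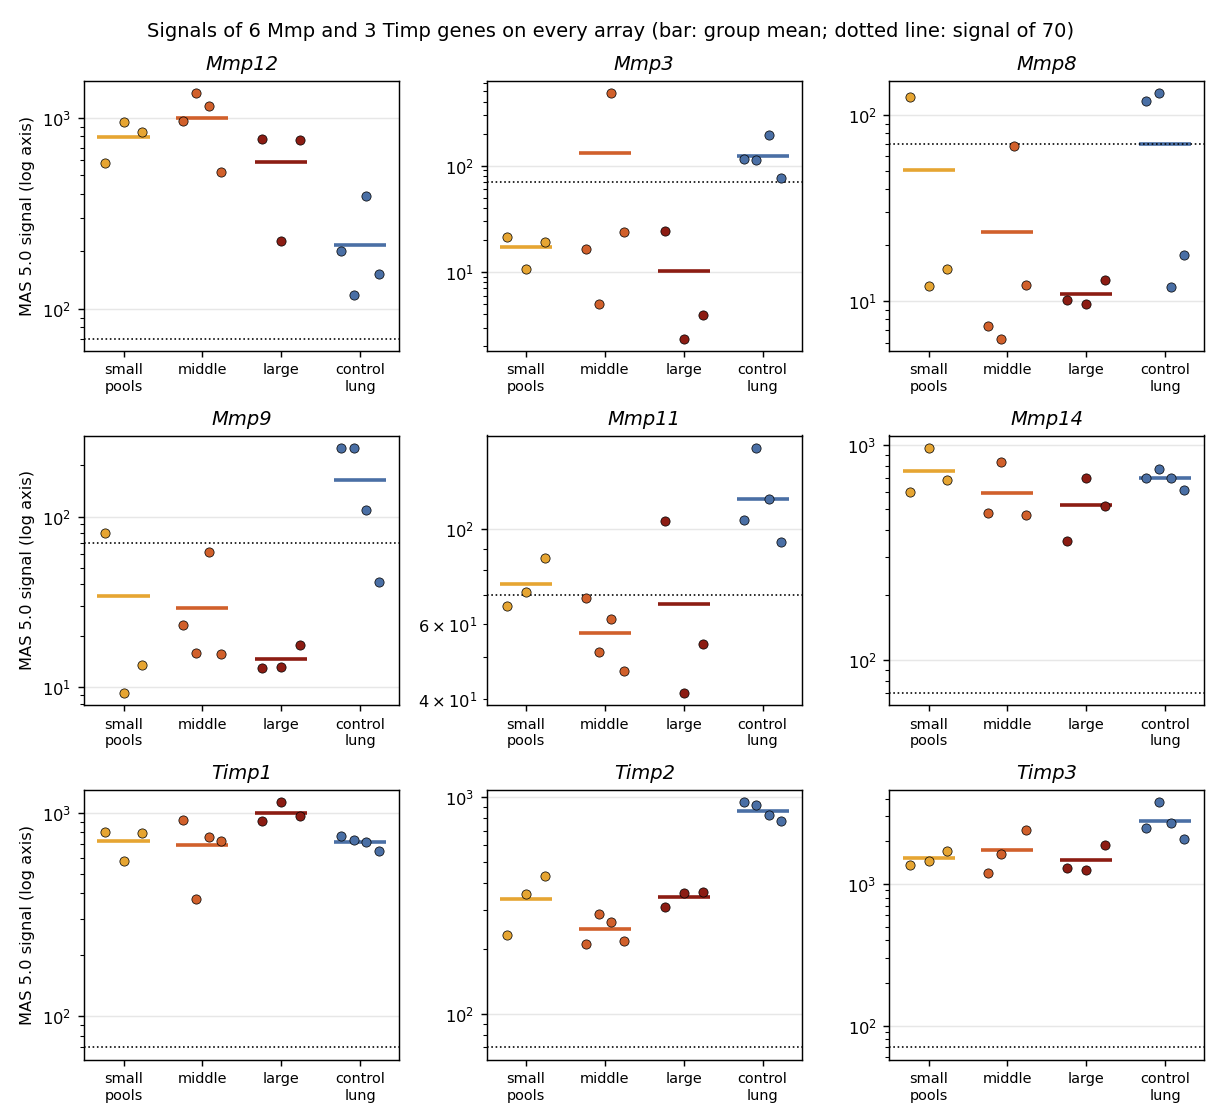
MAS 5.0 signal (log axis) of the 9 tested members on each array, by tumor size and in control lung, with group means as bars and a dotted line at 70. Mmp12 was higher than every control lung in 9 of 10 tumors, Timp2 was lower than every control lung in 10 of 10, and the Mmp3 signal of 478 is middle replicate 3.

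Mmp12, the macrophage metalloelastase, cleaves elastin and is the MMP most closely tied to emphysema in mice. Its probe set read 580.4, 949.6 and 843 in the small pools, 963, 1346, 1160.0 and 522 in the middle-sized tumors and 777, 225.5 and 764 in the large tumors, against 200.1, 118, 390.1 and 152 in control lung. Of the 10 tumors, 9 were above every control lung and large replicate 2 lay within the control range. The mean was 813 ± 322 in tumors (SD, n = 10) and 215 ± 122 in control lung (SD, n = 4). The log2 fold change was 1.90 (SE 0.36, adjusted p = 7.2e-04), a 3.72-fold difference, and it was 2.00 in small pools, 2.28 in middle-sized and 1.40 in large tumors (adjusted p = 0.00429, 0.00109 and 0.0292). The call in large tumors was lost without control replicate 1, 2 or 4 or without large replicate 1 or 3, with log2 fold changes of 1.10 to 1.42 and adjusted p-values of 0.0533 to 0.124. It was also lost without the filter (adjusted p = 0.0808), with only the groups compared (adjusted p = 0.0652) and in the methods' unpaired test (adjusted p = 0.174).

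The other Mmp12 probe set was dimmer and moved the same way. Its signal was 132, 278 and 416 in small pools, 203, 359.7, 284 and 104 in middle-sized tumors and 162, 66 and 163 in large tumors, against 52.1, 40.5, 134 and 51.4 in control lung. Large replicate 2 was again the lowest tumor, and control replicate 3 was again the highest control lung. In a fit over all 12422 probe sets its log2 fold change was 1.19 (adjusted p = 0.0533). Among probe sets that passed the filter the same change had an adjusted p of 0.0159. By size, the fit over all probe sets gave 1.59 in small pools and 1.39 in middle-sized tumors (adjusted p = 0.0552 and 0.0768). With the filter these 2 sizes were called (adjusted p = 0.0162 and 0.0246). In large tumors the change was 0.58 and was not called (adjusted p = 0.598 over all probe sets).

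Because Mmp12 is made by macrophages, the macrophage markers were set beside it. Of 15 listed markers, 11 were tested, of which 1 was higher (Cd14, log2 fold change 1.08) and 4 were lower in tumors, among them Csf1r, the receptor that macrophages need for survival (-1.06). The median over the 11 genes was -0.30. Cd68, a lysosomal protein of macrophages, had 314 to 525 in tumors and 299.9 to 389 in control lung (log2 fold change 0.20, adjusted p = 0.301). The summed signal of the 15 markers was 7108 to 12131 in the 9 tumors other than middle replicate 3, and 9969 to 12046 in control lung, so the ranges of the marker sum overlapped. The part of macrophages in the Mmp12 signal was not tested. In such bulk samples, fewer cells of a type and less RNA per cell cannot be told apart.

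Mmp3, or stromelysin 1, is a broad protease of fibroblasts that also activates other MMPs. It read 21.3, 10.7 and 19.1 in small pools, 16.4, 5.01, 478 and 23.8 in middle-sized tumors and 24.5, 2.37 and 3.95 in large tumors, against 115, 112, 192 and 75.7 in control lung. Thus 9 of 10 tumors were below 70 and below every control lung, whereas middle replicate 3, the array with missing values, was above every control lung. With all arrays the log2 fold change was -0.51 (SE 0.41, adjusted p = 0.342). Without middle replicate 3 it was -0.74 in all tumors and in each size, with adjusted p-values of 0.00349 for all tumors, 0.0181 for small pools, 0.0222 for the 3 other middle-sized tumors and 0.0175 for large tumors. In that fit Mmp3 passed the filter through the control lungs alone. All 9 tumors stood at the limit of 70 and had no spread, so the size of the change and its p-values were set by the limit. Small and large tumors, below the limit throughout, were at least 1.77-fold lower than control lung (mean 124). With a limit of 35 this bound was 3.54-fold. The call in all tumors was reached with every array when the floor was 35 (log2 fold change -1.43, adjusted p = 0.0442) or absent (-3.01, adjusted p = 0.0141).

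Mmp11, or stromelysin 3, is a protease secreted in active form and is best known from the stroma of carcinomas. Its signals were 65.9, 71.2 and 85.7 in small pools, 68.9, 51.3, 61.4 and 46.3 in middle-sized tumors and 105, 41.2 and 53.8 in large tumors, against 105, 155, 118 and 93.2 in control lung. Large replicate 1 reached the control range, while the other 9 tumors were below every control lung. The mean was 65.1 ± 19.2 in tumors (SD, n = 10) and 118 ± 27 in control lung (SD, n = 4), and the log2 fold change was -0.62 (SE 0.14, adjusted p = 0.00213). It was -0.62 in small pools, -0.72 in middle-sized and -0.53 in large tumors (adjusted p = 0.0145, 0.00407 and 0.0306). Without small replicate 1 or 2 the call in small pools was lost (adjusted p = 0.0588 and 0.0578), and without control replicate 2 or 3 or large replicate 2 or 3 that in large tumors was lost (adjusted p = 0.0566 to 0.129). The call in small pools was also lost with a floor of 35, with no floor, with quantile normalization and in the methods' unpaired test after adjustment (adjusted p = 0.0681 to 0.123). That in large tumors was lost with quantile normalization, with 1 median, without the filter, with only the groups compared and in the methods' test (adjusted p = 0.0519 to 0.171). The middle-sized tumors, all below 70, were at least 1.68-fold lower than control lung.

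Mmp9, the gelatinase of neutrophils and macrophages, degrades denatured collagen and basement membrane collagen. It was measured at 79.6, 9.23 and 13.4 in small pools, 23.2, 15.8, 62.2 and 15.6 in middle-sized tumors and 13, 13.1 and 17.7 in large tumors, against 252, 253, 109 and 41.6 in control lung. Small replicate 1 was the one tumor above 70 and lay below control replicates 1 to 3, while the other 9 tumors and control replicate 4 were below 70, where signals carry no order. The mean was 26.3 ± 24.1 in tumors (SD, n = 10) and 164 ± 106 in control lung (SD, n = 4). With signals set to at least 70, the log2 fold change was -1.07 (SE 0.26, adjusted p = 0.00421), and it was -1.02 in small pools, -1.09 in middle-sized and -1.09 in large tumors (adjusted p = 0.0285, 0.0161 and 0.0208). Since 9 tumors and 1 control lung were below 70, the fold change depended on the floor, and without one it was -2.73 (adjusted p = 0.00192). Without control replicate 1 or 2 the change in all tumors was -0.81 (adjusted p = 0.0236 and 0.0235), and no size kept its call (adjusted p = 0.0549 to 0.0829). The call in small pools was also lost without any one of the 3 pools (adjusted p = 0.0545 to 0.0809). That in large tumors was lost without large replicate 1 or 2 (adjusted p = 0.0518 and 0.0541). No size kept its call in the methods' unpaired test, before or after adjustment (adjusted p = 0.207, 0.158 and 0.196 by rising size). The same held with only the groups compared (adjusted p = 0.103, 0.0698 and 0.0831). Without the filter, the calls in small pools and large tumors were lost (adjusted p = 0.0756 and 0.0582). All middle-sized and large tumors were below 70, so they had no spread in the fit with that floor.

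Mmp8, the neutrophil collagenase, is stored in granules of neutrophils. It read 124.5, 12.1 and 15 in small pools, 7.33, 6.3, 68.4 and 12.2 in middle-sized tumors and 10.1, 9.7 and 13.1 in large tumors, against 119, 131, 12 and 17.8 in control lung. Only small replicate 1 and control replicates 1 and 2 were above 70, so the groups overlapped and the level separated arrays rather than tissues. The log2 fold change was -0.33 (SE 0.18, adjusted p = 0.166).

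The arrays high in Mmp8 were also the highest in the neutrophil markers S100a8, S100a9 and Ngp. S100a8, a calcium-binding protein that fills the neutrophil cytosol, read 1740.0 on small replicate 1, 268 on middle replicate 3 and 40.1 to 69.6 on the other 8 tumors, against 2061, 2271, 310.0 and 234 in control lung. Ngp, a granule protein, read 351 on small replicate 1 and 10.6 to 21.4 on the other tumors, against 108, 153, 18.4 and 23.8 in control lung. Ltf, another granule protein, did not share this pattern, with 131 on small replicate 1 and 1052 on middle replicate 4, against 259, 325, 472 and 580.3 in control lung. Of 12 listed neutrophil markers, 8 were tested, 5 were lower in tumors, none was higher, and their median log2 fold change was -1.13. The summed signal of the 12 markers was 3906 in small replicate 1 and 549 to 1626 in the other 8 tumors with a sum, against 5462, 5350, 1801 and 1925 in control lung. Mpo, Cxcr2, Ly6g and Prtn3 were among the 4 markers below 70 on every array. The part of neutrophils in the levels of Mmp8 and Mmp9 was not tested.

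**Figure D2:**
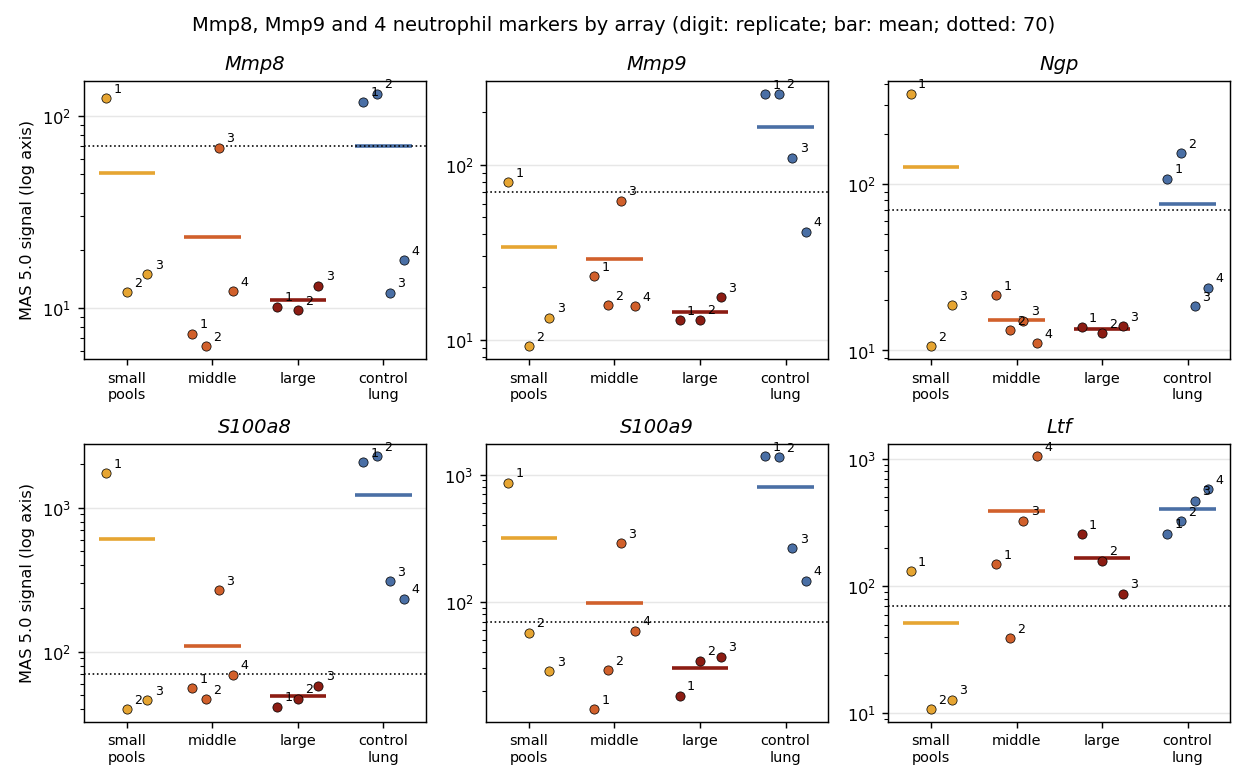
MAS 5.0 signal (log axis) of Mmp8, Mmp9 and 4 neutrophil markers on each array, by tumor size and in control lung, with the replicate number beside each point, group means as bars and a dotted line at 70. Small replicate 1 and control replicates 1 and 2 are the highest arrays for Mmp8, S100a8, S100a9 and Ngp, while Ltf, a granule protein that epithelium also secretes, does not share this order.

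Mmp2, the gelatinase of fibroblasts, was not detected as an expressed gene. Its probe sets had 7.15 to 38 and 2.12 to 12.4 in tumors, against 4.47 to 24.2 and 5.62 to 24.4 in control lung. The groups overlapped in both, and the fibroblast markers Col1a1 and Dcn, which are made by the same cells, were well above 70 on every array (Col1a1 at 268 to 1292 in tumors and 516 to 1153 in control lung). Whether these probe sets can detect the transcript was not tested.

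Mmp14 is a membrane-bound collagenase that activates pro-Mmp2 at the cell surface together with Timp2. It read 606, 968.5 and 682 in small pools, 481, 828 and 474 in the 3 middle-sized tumors with a value and 357, 697.5 and 518.5 in large tumors, against 702, 768, 701 and 619 in control lung. Tumors lay on both sides of the control range, with 2 above every control lung and 5 below. The log2 fold change was -0.22 (SE 0.20, adjusted p = 0.401) in all tumors, and it was 0.08, -0.28 and -0.46 in small, middle-sized and large tumors (adjusted p = 0.836, 0.441 and 0.168).

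Of the 3 TIMPs, Timp2 had the smallest adjusted p. Timp2 blocks most MMPs and, bound to Mmp14, also helps to activate pro-Mmp2. Its signal was 230.0, 358 and 433 in small pools, 209, 289, 267 and 217 in middle-sized tumors and 312, 363 and 367 in large tumors, against 947, 917, 828 and 772.5 in control lung. Every tumor was below every control lung, and the gap between the highest tumor and the lowest control lung was wider than the range of the tumors. The mean was 304.5 ± 75 in tumors (SD, n = 10) and 866 ± 80.3 in control lung (SD, n = 4). The log2 fold change was -1.51 (SE 0.16, adjusted p = 2.8e-06), a 2.85-fold lower signal in tumors, and it was -1.39 in small pools, -1.83 in middle-sized and -1.32 in large tumors (adjusted p = 1.2e-04, 3.9e-06 and 1.5e-04). These calls were kept in all 27 alternatives for all tumors and in all 28 for each size, with log2 fold changes of -1.58 to -1.38 for all tumors.

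Timp3, the inhibitor that is anchored in the extracellular matrix, was also lower. It read 1363, 1459 and 1712 in small pools, 1189, 1637 and 2413 in the 3 middle-sized tumors with a value and 1291, 1253 and 1877 in large tumors, against 2486, 3770.0, 2706 and 2066 in control lung. Middle replicate 4 lay within the control range, and the other 8 tumors were below every control lung. The mean was 1577 ± 389 in tumors (SD, n = 9) and 2757 ± 725.5 in control lung (SD, n = 4), with a log2 fold change of -0.81 (SE 0.20, adjusted p = 0.00434). By size it was -0.84 in small pools, -0.68 in middle-sized and -0.89 in large tumors (adjusted p = 0.018, 0.0509 and 0.0123), so the middle-sized tumors fell just outside the threshold. They were called without control replicate 4, middle replicate 4 or large replicate 3 (adjusted p = 0.0332, 0.0118 and 0.0447). The call in small pools was lost without control replicate 2 or small replicate 1 or 2 (adjusted p = 0.0533, 0.066 and 0.0578) and that in large tumors without large replicate 2 (adjusted p = 0.0542). With the value of 0 on middle replicate 3 kept as deposited, the change in all tumors was -1.19 with an adjusted p of 0.193. The calls in small pools and large tumors were lost in that setting as well (adjusted p = 0.527 and 0.482). That in large tumors was also lost in the methods' unpaired test after adjustment (adjusted p = 0.0597). Of 28 alternatives, 8 called the middle-sized tumors.

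Timp1, an inducible inhibitor that is secreted by many cells after injury, did not pass the test. It read 799, 576 and 791 in small pools, 916, 375, 755 and 721 in middle-sized tumors and 906, 1124 and 956 in large tumors, against 770.3, 735, 719.9 and 647 in control lung. All 3 large tumors were above every control lung, while the small and middle-sized tumors lay on both sides. The mean was 995 ± 114 in large tumors (SD, n = 3) and 718 ± 52 in control lung (SD, n = 4), and the log2 fold change in large tumors was 0.47 (SE 0.24, adjusted p = 0.14). It passed the threshold without middle replicate 2, the array with the lowest Timp1 signal (adjusted p = 0.0267), when the fit held only large tumors and control lung (adjusted p = 0.0183), and in the methods' unpaired test (adjusted p = 0.0242). Over all tumors the log2 fold change was 0.11 (SE 0.19, adjusted p = 0.66).

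Apart from the probe sets above, members had further probe sets that carried no measurable signal. Counting those of Mmp2, 6 of the 16 probe sets were below 70 on every array, with a highest value of 38. These belonged to Mmp2, Mmp9, Timp1 and Timp2, and for the last 3 the probe set used above was the only one with a signal of at least 70 on any array. Mmp3, Mmp8 and Mmp9 entered the test with 5, 3 and 4 arrays at or above 70, most of them control lungs, so their place among the tested genes depended on the control group.

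**Figure D3:**
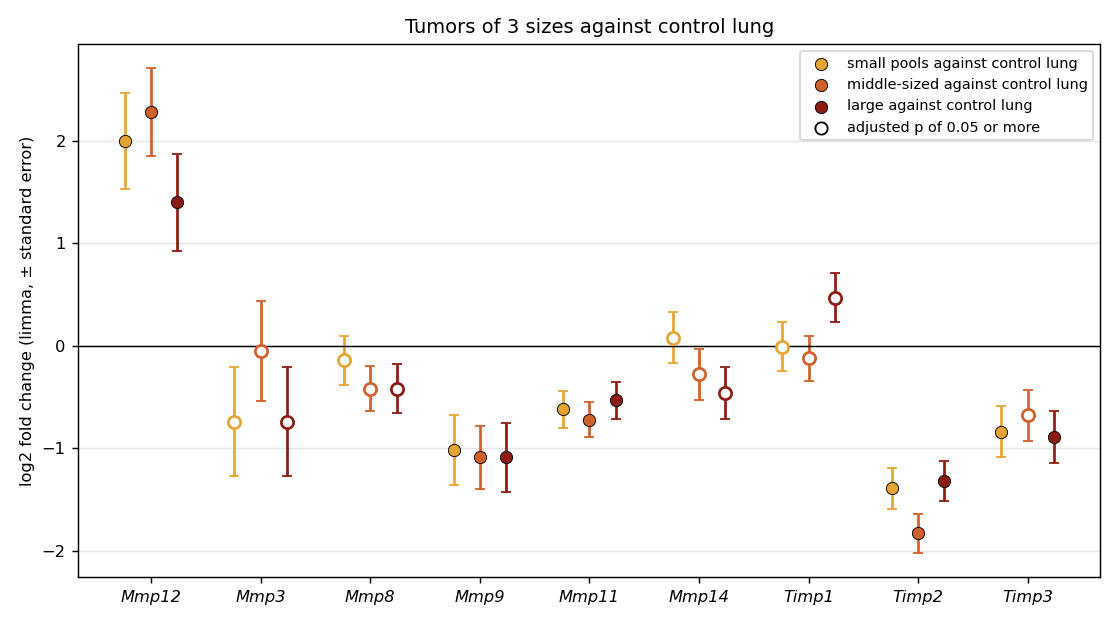
log2 fold changes of the 9 tested members in small pools, middle-sized tumors and large tumors against the same 4 control lungs (points, limma, with standard errors as bars), with open points where the adjusted p was 0.05 or more. Mmp12 lies above 0 in all 3 sizes, and Timp2 lies between -1.83 and -1.32.

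No member was called between tumor sizes. None of the 27 comparisons (9 members in 3 pairs of sizes) passed, and 3 of them had an unadjusted p under 0.05. Over all tested probe sets, 0.0289% were called between large and small tumors, 0% between large and middle-sized and 0% between middle-sized and small tumors. Timp2 was higher in large than in middle-sized tumors by 0.51 on the log2 scale (SE 0.20, unadjusted p = 0.0239, adjusted p = 0.42). Timp1 was higher by 0.59 in the same comparison (SE 0.24, unadjusted p = 0.0269, adjusted p = 0.43). The remaining one was Timp2 in middle-sized against small tumors, with a log2 fold change of -0.44 (SE 0.20, unadjusted p = 0.0478, adjusted p = 0.767). For Mmp12, the difference of large from middle-sized tumors was -0.88 (SE 0.47, adjusted p = 0.582).

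The other genes of the chromosome 9 row on the array were below 70 throughout. Mmp13, a collagenase next to Mmp12, read 12.9 to 67.6 in tumors and 15.1 to 30.0 in control lung, below 70 on every array. Mmp10, the stromelysin between Mmp3 and Mmp8, was at 0.663 to 4.92 in tumors and 0.635 to 2.65 in control lung. Mmp7, the matrilysin of epithelium at the far end of the row, was at 1.93 to 6.4 in tumors and 4.21 to 6.21 in control lung. Of the 3 tested genes of the row, Mmp12 was called, while Mmp3 and Mmp8 were called under some alternatives (for Mmp8 with array weights, adjusted p = 0.0209). The AP-1 match printed above for Mmp12 and Mmp3 was also found in the windows of Mmp7, Mmp10 and Mmp13, whose signals were below 70. Beyond this row, Mmp16, Mmp17 and Mmp24 were below 70 throughout, and with them the 6 other MMP or TIMP genes with a probe set had a highest signal of 67.6.

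**Figure D4:**
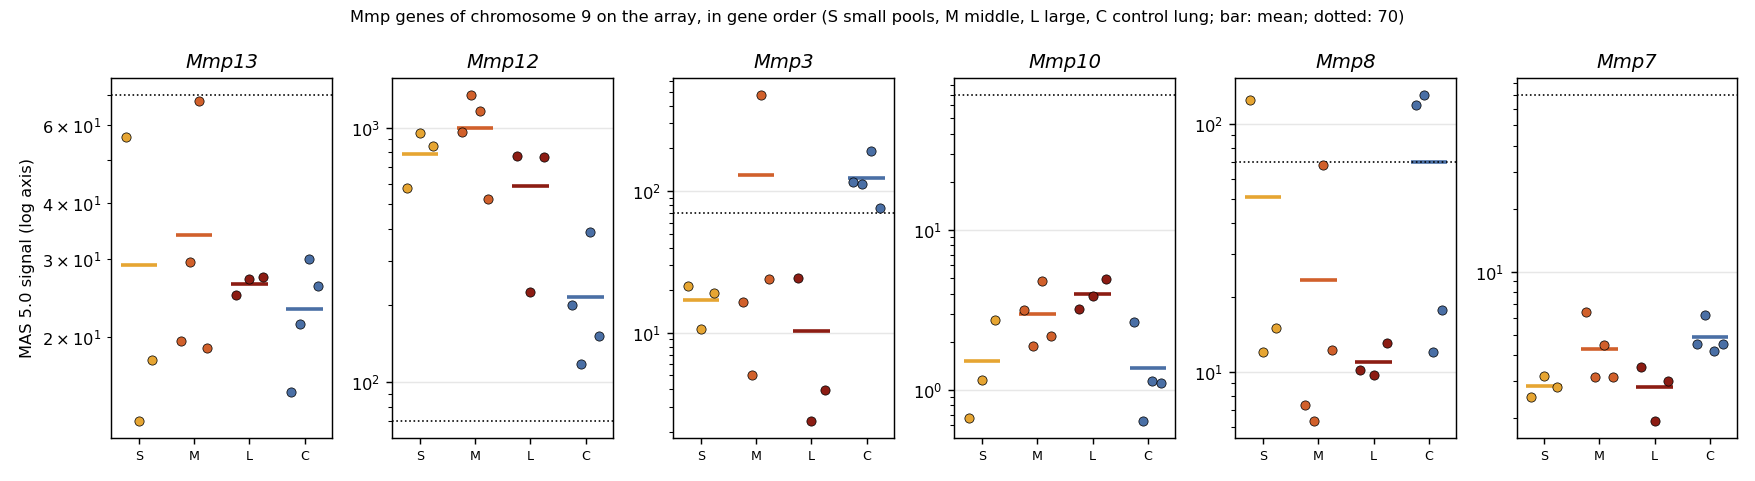
MAS 5.0 signal (log axis) of the 6 MMP genes of chromosome 9 with a probe set, left to right in gene order, in small pools (S), middle-sized tumors (M), large tumors (L) and control lung (C), with group means as bars and a dotted line at 70. Mmp12 is the gene with tumor signals of 225.5 to 1346, and Mmp3, the next gene with a probe set, is below 70 in 9 of 10 tumors.

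The proteins around the MMPs were taken from lists. Counts in this and the following lists stand beside 23.6% higher and 21% lower over all tested probe sets. Of 13 listed activators, receptors and other inhibitors, 12 were on the array and 9 were tested, of which 4 were higher, 3 were lower and 2 were not called (median log2 fold change 0.21, against 0.04 over all tested probe sets). Reck, a membrane-anchored inhibitor of several MMPs, had 87.1 to 226 in tumors with a median of 168, against 725 to 1025 in control lung, a log2 fold change of -2.36 (SE 0.22, adjusted p = 1.2e-06). Spock2, a testican proteoglycan that modulates membrane-type MMPs, had 62.1 to 381 in tumors, against 1566 to 2061 in control lung (-3.63, SE 0.25, adjusted p = 5.8e-08). Every tumor was below every control lung in both genes, as for Timp2. Lcn2, a lipocalin known from human cells to bind MMP9 and protect it from degradation, had a value in 9 tumors. It read 1375 to 3503 there, against 258 to 757 in control lung (2.42, SE 0.27, adjusted p = 8.0e-06). Cd44, a hyaluronan receptor that can hold Mmp9 at the cell surface, had 125 to 753 in tumors, against 108 to 129.5 in control lung (1.55, SE 0.36, adjusted p = 0.00276). Lcn2 was thus higher in tumors whose Mmp9 signal was mostly below 70.

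Among ADAM and ADAMTS proteases, related families of membrane-bound sheddases and secreted matrix proteases, 7 of the 11 genes on the array were tested, with 2 higher, 2 lower and 3 not called (median -0.01). Adam19 had 648 to 1310.0 in tumors, against 169 to 344 in control lung (1.71, SE 0.21, adjusted p = 1.3e-05). Adam28 had 26 to 324 in tumors, against 23.9 to 152 in control lung (1.02, SE 0.36, adjusted p = 0.0301). The 2 that were lower were Adam15 (-0.74, SE 0.14, adjusted p = 4.7e-04) and Adam9 (-0.66, SE 0.15, adjusted p = 0.00293).

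Plasmin, made from plasminogen by its activators, is a known activator of pro-MMPs, and 6 of 9 genes of this system on the array were tested. None was higher, 2 were lower and 4 were not called (median -0.50). Plat, the tissue-type activator, had 112 to 696 in tumors, against 997 to 1804 in control lung (-2.34, SE 0.31, adjusted p = 2.7e-05). S100a10, which docks plasminogen and its activator at the cell surface, had 486 to 977.5 in tumors, against 1061 to 1356 in control lung (-0.76, SE 0.15, adjusted p = 9.3e-04).

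Of the matrix proteins that MMPs cleave, 16 were tested of 20 listed, with 1 higher, 7 lower and 8 not called (median -0.44). Lama5, a laminin chain of epithelial basement membranes, was the one that rose (0.86, SE 0.16, adjusted p = 4.7e-04), with 540 to 1014 in tumors and 346.5 to 400.0 in control lung. Lama3 had 24.7 to 115 in tumors, against 227 to 394 in control lung (-1.92, SE 0.18, adjusted p = 9.3e-07). Col4a5, a basement membrane collagen chain, had 22.2 to 94.5 in tumors, against 169 to 249 in control lung (-1.46, SE 0.12, adjusted p = 2.2e-07). Eln, the elastin that Mmp12 degrades, did not pass the test in all tumors (-0.44, SE 0.29, adjusted p = 0.237) but was lower in large tumors, with 431 to 1294, against 975 to 1818 in control lung (-1.14, SE 0.37, adjusted p = 0.0261).

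**Figure D5:**
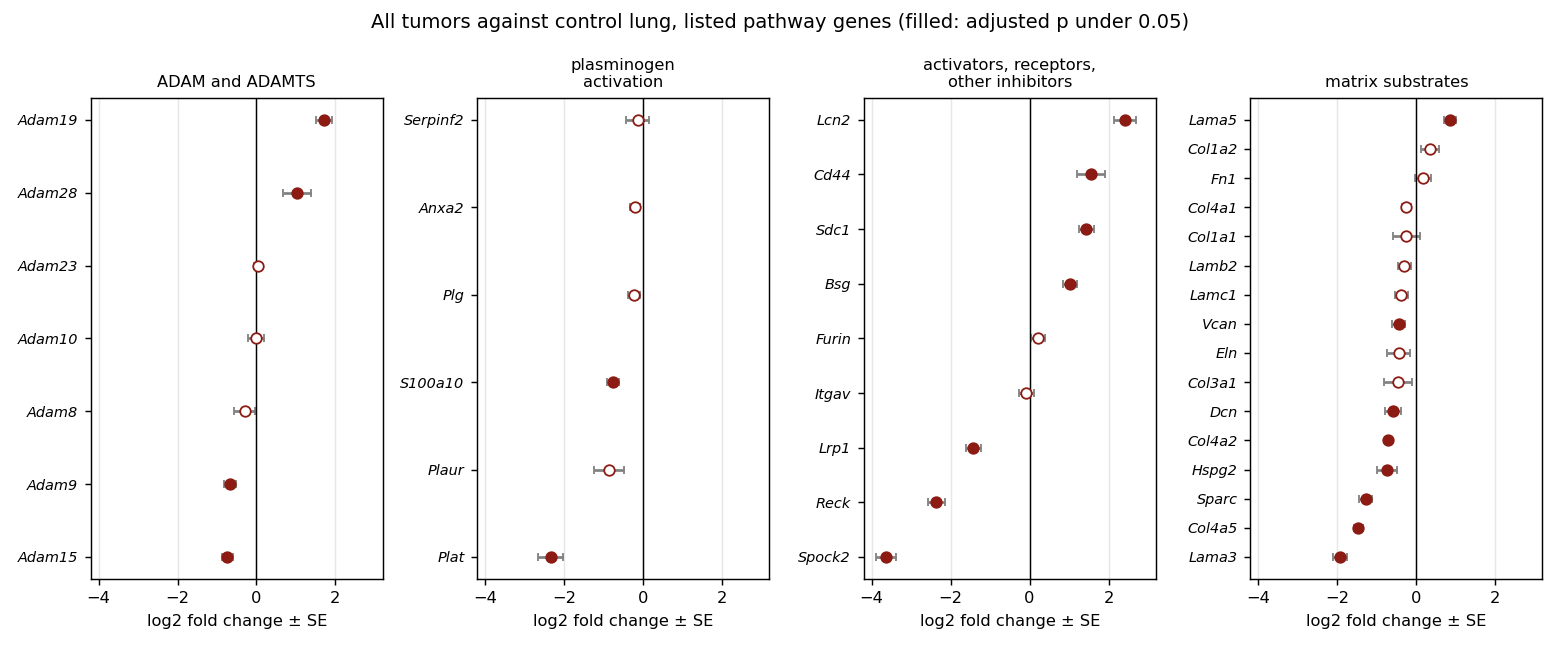
log2 fold changes of all tumors against control lung (points, limma, with standard errors as bars) for the tested genes of 4 lists, with filled points at an adjusted p under 0.05. The plot runs between Spock2 at -3.63 and Lcn2 at 2.42, both among activators, receptors and other inhibitors.

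Markers of several cell types differed between the groups. Of 13 tested markers of fibroblasts, the cells known for Timp2, Timp3, Mmp3 and Mmp11, 10 were lower and none was higher (median -1.08), and the summed signal of the list was 3080 to 6554 in 9 tumors, against 14453 to 17324 in control lung. Endothelial markers were lower for 11 of 12 (median -3.43), with a sum of 1802 to 3418 in tumors and 21707 to 27333 in control lung. Smooth muscle markers were lower for 7 of 7 (median -2.16) and alveolar type I markers for 5 of 5 (median -2.15). Of 3 tested alveolar type II markers, 1 was higher and none was lower (median 0.37). Log2 fold changes of Mmp11, Timp2 and Timp3 were -0.62 to -1.51. Those of the tested fibroblast markers ran from 0.35 for Col1a2 to -3.48. Col1a2, Col1a1 (-0.25) and Col3a1 (-0.46) were not called. The part of these cells in the lower signals of Mmp3, Mmp11, Timp2 and Timp3 was not tested.

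Genes whose pattern over the tumors was most like that of a called member were looked for among 5205 tested genes, by Pearson correlation on log2 signals. For Mmp12 over 10 tumors these were Rab11a, a GTPase of recycling endosomes (r = 0.971), Prkag1, a subunit of the AMP-activated kinase (r = 0.928), and Epcam, an adhesion protein of epithelium (r = 0.902). For Timp2 they were Ap2b1, a clathrin adaptor subunit (r = 0.908), Rcc1, the nucleotide exchange factor of Ran (r = 0.881), and Cpox, an enzyme of heme synthesis (r = 0.851). For Timp3, over 9 tumors, they were Cideb, a lipid droplet protein (r = 0.984), Cstb, an inhibitor of cathepsins (r = 0.941), and Adssl1, an enzyme of adenine nucleotide synthesis (r = 0.940). These are the largest of the 5205 values, over few tumors, and the points share the array scaling. For Mmp9 and Mmp11, with 1 and 3 tumors above 70, such a correlation would rest on those tumors and is not given.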

How the data were processed

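The authors computed the deposited signal intensity with MAS 5.0 in GCOS, per the methods scaled to a target of 250. Values below 1e-06, all on the array of middle replicate 3, were treated as missing. The table held 12488 probe sets, 66 of them controls, which were removed. Signals under 70 were raised to 70 before the log2 transformation. A probe set was tested if it reached 70 on 3 or more arrays, with 1 probe set for each gene symbol (the highest mean), in all 6914. The test was limma (version 3.58.1, in R 4.3.3, eBayes with trend), with a mean for each of the 4 groups, 7 contrasts and Benjamini-Hochberg adjustment, and it was checked on simulated data. Further probe sets were fitted over all 12422 without this filter. Lower bounds are means of control lung over 70. Named are all members, up to 2 rises and 2 falls of each pathway list, other MMP and TIMP genes and the 3 most correlated genes. The members and lists were chosen with earlier results of these data known, and single markers given beside members, with Eln, after their values were seen. The number of arrays limits the precision. Promoter windows come from RefSeq.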

Additional observations from a re-analysis of the deposited data

Results flagged for a closer look

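Middle-sized tumor replicate 3 lay far from the other 3 middle-sized tumors in 3 members, of 16 groups of 4 arrays checked. For Mmp3 it read 478, with a gap to the next tumor of 0.960 of the group's range. For Mmp8 it read 68.4 (0.905 of the range), and for Mmp9 it read 62.2 (0.838 of the range), but all 4 values of both genes were below 70, where signals carry no order. For normally spread values, chance gives such a gap in about 1 of 20 groups. The spread of these signals was not checked, and the 3 groups share an array. All 3 gaps fell on the array with 25.2% of its values missing. S100a8 and S100a9 on it, at 268 and 290.4, were the highest of the middle-sized tumors as well. The neutrophil markers Ngp, Camp and Ltf on it, at 15.1, 114 and 327, were not. Ngp and Camp read 21.4 and 150 on middle replicate 1, and Ltf read 1052 on middle replicate 4.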

How the results depend on the processing

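The calls of Mmp12, Mmp9, Mmp11 and Timp2 in all tumors were kept under every alternative that gave a value. There were 26 such alternatives for Mmp9 and 27 for each of the others. Mmp9 was not tested when at least 70 on at least 7 arrays was required. Most of its 4 arrays at or above 70 were control lungs, so its calls under the filter are not separate support. The count of 5 members ranged from 5 to 6 when 1 array was left out. In small pools the count of 5 was 3 with the methods' unpaired test after Benjamini-Hochberg and 2 to 6 with 1 array left out. In large tumors the count of 5 was 2 without the filter, 2 with the methods' test after Benjamini-Hochberg and 3 with that test at p under 0.05. It was 3 with only the groups compared, and 2 to 6 with 1 array left out. The counts from the methods' test and from only the groups compared include Timp1 as higher, which is not among the 5. Of the 5, the methods' test after Benjamini-Hochberg kept Timp2. That test at p under 0.05 and the fit with only the groups compared kept Timp2 and Timp3. Between sizes the count of 0 was 1 with the methods' test at p under 0.05. The replicate number used as a block gave 5, 5, 4 and 6 called members in all, small, middle-sized and large tumors, the addition being Mmp14 in large tumors (-0.54, adjusted p = 0.033). Deviations of same-numbered arrays from their group means correlated at -0.21 to 0.14, against -0.39 to 0.56 for arrays of different number. Whether same-numbered arrays shared their handling was not tested. Values near 0 that were not called changed sign: with 1 median, Mmp3 in middle-sized tumors (0.08) and Timp1 in small pools (0.12) and middle-sized tumors (0.07); with array weights, Timp1 in all tumors (-0.02); with 1 array left out, Mmp3 in middle-sized tumors (-0.74 to 0.19), Timp1 in small pools (-0.09 to 0.15) and middle-sized tumors (-0.28 to 0.15), and Mmp14 in small pools (-0.11 to 0.22). Mmp8 was called in all tumors with array weights (-0.54, adjusted p = 0.0209). The cause of these shifts was not tested. Signals below 70 carry no order, which limits Mmp2, Mmp3, Mmp8, Mmp9 and Mmp11. A fit with only the groups compared is the same fit for all tumors.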
